A study of Mus musculus with 36 samples.

Results

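Interferon induced genes are the genes that a cell switches on when interferon reaches its receptors, and 41 of them were followed here through mouse skin wounds. The members are a list of 41 gene symbols. Every symbol was found among the 55414 genes of the count tables, and all 41 passed the filter on low counts, which left 20657 genes for testing. RNA sequencing counts came from 36 skin libraries, of which 3 were of unwounded skin. Day 2 after injury had 5 libraries of P wounds and 5 of PD wounds, day 4 had 5 and 6, and day 12 had 6 and 6. The series concerns the removal of p21-high senescent cells during skin repair, but the labels name the arms only as P and PD. They give no genotype, strain, agent, sex or age for either arm or for the unwounded animals. The labels do not say whether the libraries of a group came from separate animals, so p-values measure only the spread between these samples, which may be technical.

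Interferons of type I and type III act through Jak kinases on a complex that holds Stat2 and Irf9 and binds the interferon-stimulated response element of target genes. Interferon gamma acts mainly through the gamma-activated site and drives guanylate-binding proteins, immunoproteasome subunits and the chemokine Cxcl9. The products of the induced genes sense viral RNA or DNA, degrade or hold back viral RNA, attach the ubiquitin-like protein Isg15 to other proteins, attract Cxcr3-bearing lymphocytes and load peptides onto MHC class I. In skin, keratinocytes, macrophages, dendritic cells and neutrophils can all express them, and plasmacytoid dendritic cells are a known source of type I interferon in injured skin.

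The total count per library ran from 11.8 M to 58.4 M, with a median of 30.4 M. Values are given as CPM, the count of a gene per 1 M counts of the library, scaled by the TMM factors of edgeR, which correct for composition. A change is called where its p, adjusted by Benjamini-Hochberg over all 20657 genes, is under 0.05. Unless another setting is named, calls are those of edgeR with all 36 libraries in the fit. All 36 libraries held the 9 keratinocyte markers of skin, with 3423 to 59067 summed CPM. At day 12 the libraries of both arms stood apart by replicate number, and the labels do not say what these numbers mark. The median of the 41 genes, as log2 of CPM over the mean of unwounded skin, was 1.89 and 0.82 in P replicates 1 and 2 and -0.28 to -0.12 in P replicates 3 to 6. In PD wounds of that day it was 2.03 and 1.65 in replicates 1 and 2, 0.71 in replicate 6 and -0.49 to 0.19 in replicates 3 to 5. Counts of the 41 genes called at day 12, against unwounded skin and day 4, are therefore given with and without wound replicates 1 and 2. This choice was made after these values were seen. Other day 12 results are from all libraries unless stated. In P wounds at day 4, replicate 3 had the lowest median of its group at -0.24. It was also the library with 5024 summed CPM of hair follicle genes, against 41.6 CPM or less in the other day 4 wounds.

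The start of each gene was examined for the motifs of both pathways, because they are what the members are known to share in regulation. Promoters of 300 bases, from 250 before to 50 after the first transcribed base, were read from GRCm39 with the canonical transcripts of GENCODE vM39. They were searched on both strands for the response element core, GAAANNGAAA (TTTCNNTTTC on the opposite strand), and for the gamma-activated site, TTCNNNGAA, which is its own reverse complement. Matches of either motif were counted also where they shared bases with another match. The 120 bases before the start are shown for Isg15, Oas3, Zbp1 and Oasl1, which rose in wounds of each day. They are also shown for Ifit1, which rose in PD wounds at day 2, and for Usp18, which was not called against unwounded skin with all libraries in the fit. Capitals mark the bases of response element cores. The windows are chr4:156285304-156285423 on the minus strand (Isg15), chr5:120915730-120915849 on the minus strand (Oas3) and chr2:173060725-173060844 on the minus strand (Zbp1). They are chr5:115061174-115061293 on the plus strand (Oasl1), chr19:34618151-34618270 on the plus strand (Ifit1) and chr6:121222737-121222856 on the plus strand (Usp18).
Isg15: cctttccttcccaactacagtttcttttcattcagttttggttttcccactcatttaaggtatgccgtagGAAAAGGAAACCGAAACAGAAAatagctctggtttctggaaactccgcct
Oas3: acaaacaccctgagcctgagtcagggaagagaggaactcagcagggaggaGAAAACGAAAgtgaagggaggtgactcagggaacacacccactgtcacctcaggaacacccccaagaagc
Zbp1: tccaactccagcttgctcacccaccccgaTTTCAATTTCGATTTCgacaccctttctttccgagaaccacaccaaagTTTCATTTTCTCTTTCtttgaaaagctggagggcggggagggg
Oasl1: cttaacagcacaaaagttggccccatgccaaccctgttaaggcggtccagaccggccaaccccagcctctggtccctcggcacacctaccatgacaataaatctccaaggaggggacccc
Ifit1: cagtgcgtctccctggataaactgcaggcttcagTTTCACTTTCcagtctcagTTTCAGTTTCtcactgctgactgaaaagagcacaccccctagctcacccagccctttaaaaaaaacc
Usp18: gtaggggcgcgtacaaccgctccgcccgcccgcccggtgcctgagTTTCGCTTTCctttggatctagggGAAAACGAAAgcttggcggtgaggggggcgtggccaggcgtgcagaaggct

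Isg15 held 3 cores that overlap in 1 run, Zbp1 held 4 in a pair of runs, Ifit1 and Usp18 held 2 each and Oas3 held 1, while these letters were not in the window of Oasl1. Over the full 300 bases, 22 of the 41 members (53.7%) held at least 1 response element core, against 835 of 21770 promoters of all protein-coding genes (3.84%). The gamma-activated site was in 11 of 41 members (26.8%) and in 8.81% of all promoters, and both motifs were in 7 members (17.1%) and in 0.565% of all promoters. By role, cores were in 6 of 8 interferon induced GTPases and in 0 of 3 of Psmb8, Psmb9 and Tap1. A match is a description of the letters and not a binding site.

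Members also lie beside each other in the genome, and 24 of the 41 fell into 9 clusters whose neighbours were at most 1 Mb apart. The 4 Ifit genes span 104.0 kb of chromosome 19, the 4 Gbp genes span 144 kb of chromosome 3, and Oas1a, Oas2 and Oas3 span 178 kb of chromosome 5. Psmb9, Tap1 and Psmb8 lie within 19.5 kb of chromosome 17, where Psmb9 and Tap1 overlap on opposite strands. In all, 23 members overlap an annotated gene on the opposite strand and 7 overlap 1 on the same strand, such as Igtp and Irgm2. Since the strand setting of the counting is not given in the sources used here, reads of such neighbours may not be told apart. The canonical transcripts of Ifit3 and Ifit3b are identical at 97.5% of 2042 aligned bases, so the split of reads between these copies is uncertain.

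At day 2 the share of the list called higher in wounds than in unwounded skin was above that of all genes in both arms. At day 4 it was only somewhat above, and at both days almost none of the list was lower. At day 2, 14 of the 41 genes were higher in P wounds than in unwounded skin (34.1% of the list, against 22.3% of all genes tested) and 1 was lower (19% of all genes). In PD wounds of that day 24 were higher (58.5% of the list, against 21% of all genes) and 0 lower (18.4% of all genes). At day 4, 13 were higher in P wounds (31.7% of the list, against 23.6% of all genes) and 0 lower (19.7% of all genes). In PD wounds 13 were higher (25.4% of all genes) and 2 lower (21.8% of all genes). At day 12, 9 were higher in P wounds (22% of the list, against 23.7% of all genes) and 0 lower (20% of all genes). There 11 were higher in PD wounds (26.8% of the list, against 24.2% of all genes) and 0 lower (20.7% of all genes). Without wound replicates 1 and 2 the day 12 counts were 4 higher and 8 lower in P and 9 higher and 4 lower in PD wounds. With all libraries the share called higher is near that of all genes at day 12 and furthest above it in PD wounds at day 2. At day 4 it is 31.7% in both arms, somewhat above the 23.6% and 25.4% of all genes. Leaving out 1 unwounded library took the day 2 counts, higher and lower together, as low as 10 in P and 17 in PD wounds. It took those of day 4 as low as 8 in P and 9 in PD wounds. The share called lower is under that of all genes throughout. In the 4 comparisons with 0 members lower by edgeR, 0 were lower at an unadjusted p under 0.05 and 0 by the Wald test of DESeq2. The median log2 fold change of the 41 genes was 0.59 in P and 1.43 in PD wounds at day 2, 0.52 in both arms at day 4, and 0.55 in P and 1.09 in PD wounds at day 12. The median of all genes lay between 0.02 and 0.10. These 6 comparisons share the same 3 unwounded libraries, so they are set side by side and not counted against each other. In such bulk tissue, more cells of a type and more RNA per cell cannot be told apart.

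**Figure D1:**
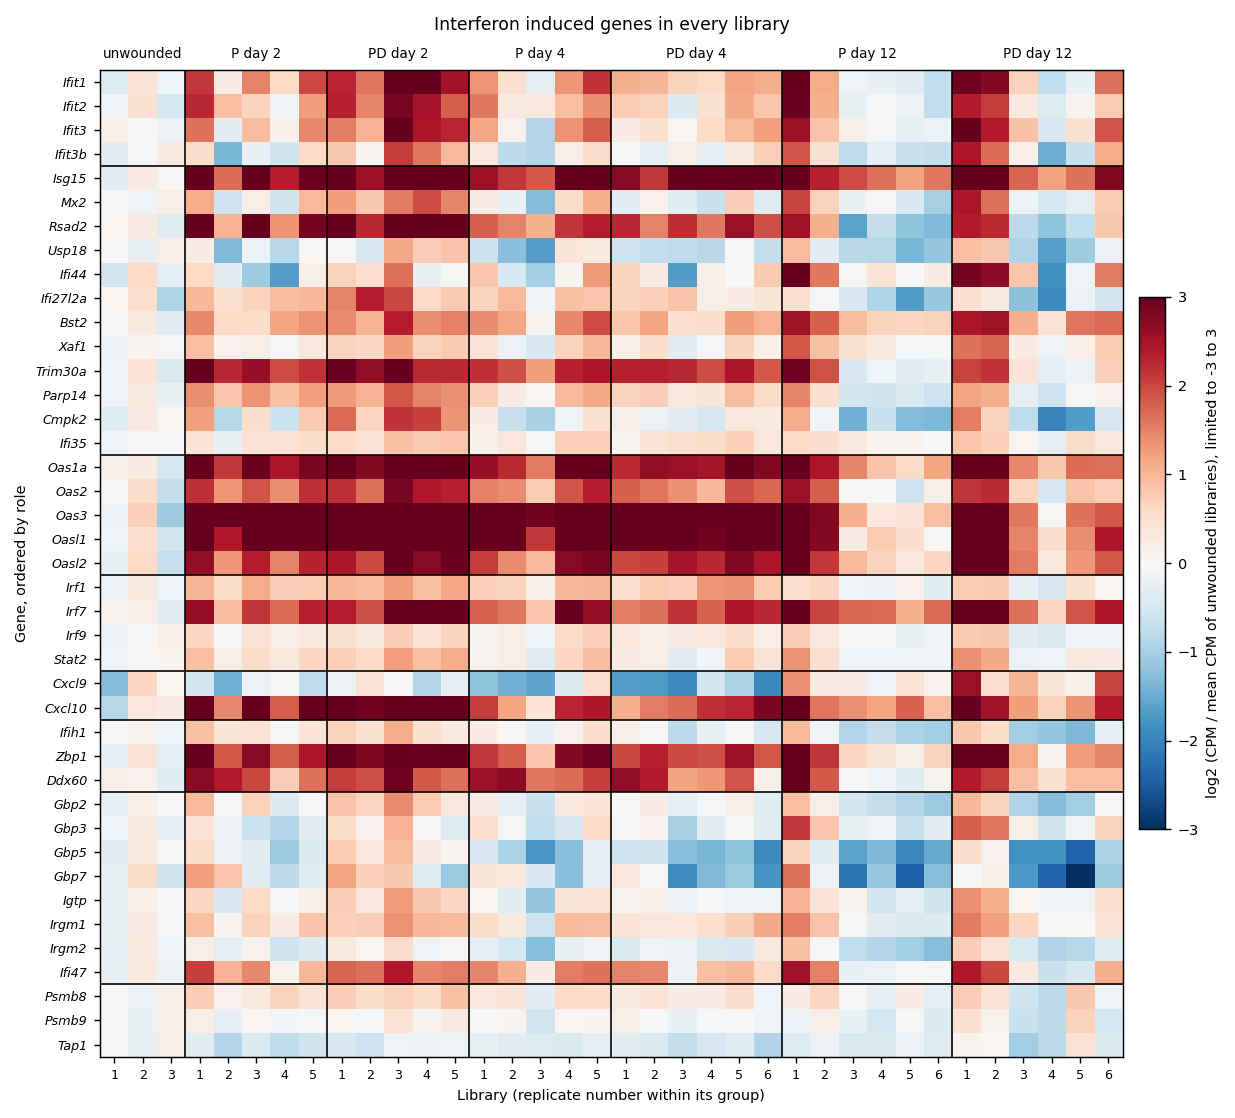
Colour shows log2 of CPM over the mean of the unwounded libraries for each of the 41 genes (rows, with lines between role groups) in each of the 36 libraries (columns, by group), limited to -3 to 3. The oligoadenylate synthetase rows are red in the wounds of days 2 and 4, the GTPase rows are pale or blue in most, and in both day 12 groups replicates 1 and 2 stand out in red.

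Markers of inflammatory cells were higher in the wounds over the same days. The 11 monocyte and macrophage markers summed to 159 to 458 CPM in unwounded skin. Their sum was 3837 to 6318 CPM in P and 2639 to 4217 CPM in PD wounds at day 2 and 2081 to 6959 CPM in P and 3734 to 6219 CPM in PD wounds at day 4. By day 12 it was 236 to 2455 CPM in P and 490.2 to 1722 CPM in PD wounds. None of the 11 was at 0 in any library. The 10 neutrophil markers summed to 16.6 to 22.6 CPM in unwounded skin and to 2358 CPM or more in every wound of days 2 and 4. Ly6g, a defining neutrophil marker, was at 0 in 11 libraries. The 6 plasmacytoid dendritic cell markers summed to 332 to 493 CPM in unwounded skin and did not exceed 385 CPM at day 2. Most of this came from Cox6a2 and Tcf4, which other cells also express. Siglech, which defines the cell, reached at most 4.02 CPM in any library. Sums of other markers changed too. Skeletal muscle markers summed to 47219 to 76442 CPM in unwounded skin and 11305 to 37659 CPM in wounds of day 2. For epidermal gamma-delta T cells these ranges were 72.8 to 108 and 7.41 to 17.1 CPM. Hair follicle markers were at 13.5 to 20.7 CPM in unwounded skin and 487 to 9141 CPM in wounds of day 12. The part of these cells in the results that follow was not tested.

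The interferon genes themselves were barely detected. Of 13 ligand genes 1 passed the filter on low counts, Ifnk, which encodes interferon kappa, a type I interferon of keratinocytes. Ifnk had 2 counts over the 3 unwounded libraries and 61 over the 5 P and 100 over the 5 PD wounds of day 2. It had 11 and 6 over the P and PD wounds of day 4, and 7 and 0 over those of day 12. It rose at day 2 in P wounds (log2 fold change 3.88 ± 1.48 SE, edgeR adjusted p = 0.0372) and in PD wounds (log2 fold change 4.50 ± 1.48 SE, edgeR adjusted p = 0.0169), on these few counts. The counts were uneven between libraries, at 27, 4, 5, 5 and 20 in P and 42, 2, 46, 0 and 10 in PD wounds of day 2. Ifnab, an interferon alpha gene that did not pass the filter, had 0 counts in unwounded skin, 38 over the 5 P and 23 over the 5 PD wounds of day 2, and 14 and 30 over those of day 4. At day 12 it had 2 in P and 10 in PD wounds. Ifnb1, the gene of interferon beta, had 6 counts in 1 P library and 11 counts in 3 PD libraries at day 2, against 0 counts in unwounded skin. Ifng, the gene of interferon gamma, had 2 counts in unwounded skin, 10 and 12 in P and PD wounds at day 2, and 13 and 4 at day 4. At day 12 it had 4 in P and 26 in PD wounds, where all 6 PD libraries held at least 1. At this depth no order between the groups can be read for the interferons that did not pass the filter.

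Receptor and signalling genes were called in both directions. Of 10 genes for receptors and kinases, 5 were higher and 1 lower in P wounds at day 2, and 4 and 1 in PD wounds. The counts higher and lower were 3 and 2 in P and 4 and 3 in PD wounds at day 4. They were 2 and 3 in P and 1 and 4 in PD wounds at day 12. At day 2 the share higher was 50% in P and 40% in PD wounds, against 22.3% and 21% of all genes. In P wounds at day 4 the shares of 30% higher and 20% lower were near the 23.6% and 19.7% of all genes. In PD wounds of that day they were 40% and 30%, against 25.4% and 21.8%. At day 12 they were 20% and 30% in P wounds, against 23.7% and 20% of all genes. In PD wounds of day 12 they were 10% and 40%, against 24.2% and 20.7%. Both subunits of the type I receptor rose at day 2. Ifnar1 rose by 1.45 in P and 1.03 in PD wounds (log2 fold changes, edgeR adjusted p = 4.26e-05 and 0.0018). Ifnar2 rose by 1.99 and 1.70 (edgeR adjusted p = 9.31e-06 and 7.83e-05). The chains of the type III receptor went opposite ways. Ifnlr1, its specific subunit, was lower at each day in both arms, with log2 fold changes from -1.02 to -0.83. Il10rb, the chain it shares with the interleukin-10 receptor, was higher at each day, by 0.74 to 2.09 in P and 0.75 to 2.02 in PD wounds. Ifngr1, the ligand-binding subunit of the interferon gamma receptor, was lower at day 12 in P wounds (log2 fold change -1.43 ± 0.27 SE, edgeR adjusted p = 9.97e-05) and in PD wounds (log2 fold change -1.65 ± 0.27 SE, edgeR adjusted p = 1.56e-05). Ifngr2, the other subunit of that receptor, was called in P wounds at day 2 (log2 fold change 0.57 ± 0.20 SE, edgeR adjusted p = 0.0243) and in no other wound group. Among 6 brakes on the signal, 4 (66.7%) were higher in each arm at days 2 and 4, against 21% to 25.4% of all genes. Socs1, which blocks Jak kinases, rose in wounds of each day by 1.25 to 1.92 (log2 fold change).

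Of the transcription factors, Irf7, which drives the type I interferon genes and is itself induced by interferon, was called at each day in both arms. Irf7 was at 16.4, 17.8 and 12.5 CPM in unwounded skin. At day 2 it was at 94.9, 29.6, 68.7, 50.1 and 78.3 CPM in P wounds and 80.2, 59.3, 178, 129 and 124 CPM in PD wounds. The lowest of these 10 libraries, P replicate 2, was still above unwounded skin. At day 4 it was at 52.9, 46.3, 27.9, 126 and 95.8 CPM in P wounds. In PD wounds of that day it was at 45.1 CPM at the lowest, 61.5 at the median and 84.7 at the highest. Neither arm overlapped unwounded skin at day 4. The P wounds of day 12 held 32.8 CPM at the lowest, 51.2 at the median and 164 at the highest. The PD wounds held 24.3 CPM at the lowest, 70.4 at the median and 141 at the highest. The day 12 libraries too all lay above unwounded skin. The changes were called in P wounds at day 2 (log2 fold change 2.04 ± 0.55 SE, edgeR adjusted p = 0.00329), day 4 (log2 fold change 2.16 ± 0.55 SE, edgeR adjusted p = 0.00222) and day 12 (log2 fold change 2.14 ± 0.54 SE, edgeR adjusted p = 0.00202). In PD wounds the log2 fold changes were 2.87 ± 0.57 SE at day 2, 2.01 ± 0.54 at day 4 and 2.40 ± 0.55 at day 12 (edgeR adjusted p = 0.000192, 0.00292 and 0.000827). No single library ended any of these 6 calls.

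Irf1, a factor induced by interferon gamma and inflammatory signals, was called at days 2 and 4 and with smaller changes. It was at 27.7, 37.7 and 29 CPM in unwounded skin. Wounds of day 2 held 63.9, 45.7, 68.1, 52.5 and 53.3 CPM in the P arm and 63, 59.98, 75.3, 58.2 and 70.4 CPM in the PD arm. Neither group overlapped unwounded skin (log2 fold change 0.85 ± 0.26 SE and 1.05 ± 0.26 SE, edgeR adjusted p = 0.00867 and 0.00169). It was also higher at day 4, by 0.75 in P and 0.94 in PD wounds. The P call ended with unwounded replicate 1 or 3 left out (edgeR adjusted p = 0.0669 and 0.0558). At day 12 it was not called in either arm (0.15 and 0.30). Stat2 and Irf9 belong to the complex that type I interferon activates. Stat2 rose in PD wounds at day 2 (log2 fold change 0.93 ± 0.35 SE, edgeR adjusted p = 0.0327), a call lost without unwounded replicate 1, 2 or 3 or PD replicate 3 or 5. Irf9 was called in no wound group by edgeR with all libraries, with log2 fold changes of 0.17 to 0.52. Without wound replicates 1 and 2 it was called in P wounds at day 4 and PD wounds at day 2. With only the libraries of the groups compared it was called in PD wounds at days 2 and 4.

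Among the 3 sensors, Zbp1 and Ddx60 rose and Ifih1 did not pass the test with all libraries. Zbp1 binds left-handed nucleic acid and can start necroptosis. It was at 4.67, 7.28 and 4.61 CPM in unwounded skin. At day 2 it was at 47.6, 20.1, 36.5, 19.6 and 29.6 CPM in P wounds and 49.1, 38.7, 69.1, 43.2 and 47.4 CPM in PD wounds. Every one of these 10 wound libraries was above the unwounded ones. The log2 fold change was 2.47 ± 0.72 SE in P and 3.16 ± 0.74 SE in PD wounds (edgeR adjusted p = 0.00623 and 0.0011). It was 2.25 and 2.13 at day 4 and 1.91 and 2.21 at day 12. At day 12 P replicates 1 and 2 stood at 69.3 and 24.5 CPM and the other 4 at 6.32 to 8.75 CPM, in the range of unwounded skin or just above it. The P call ended with P replicate 1 left out (edgeR adjusted p = 0.145). Ddx60, a helicase that assists RNA sensing, rose at days 2 and 4 in both arms by 1.81 to 2.17 (log2 fold change, edgeR adjusted p = 0.0268 and 0.0123). Each of these 4 calls ended with unwounded replicate 3 left out (edgeR adjusted p = 0.051 to 0.091). Ifih1 encodes MDA5, the sensor of long double-stranded RNA, and its log2 fold changes ran from -0.24 to 0.63.

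All 5 genes of the oligoadenylate synthetase family rose in each arm at days 2 and 4, and 4, all but Oas2, at day 12. Of all genes 21% to 25.4% were higher in these wound groups. Without wound replicates 1 and 2 the day 12 calls were 1, Oas1a, in P and 4 in PD wounds (25% and 26.5% of all genes). These enzymes make the messenger that activates RNase L, which cuts RNA, while Oasl1 lacks that activity. Oas3 had the largest fold change of the 41 genes in 5 of the 6 wound groups. Its level was 1.57, 2.87 and 0.839 CPM in unwounded skin. P wounds held 64.9, 22.1, 61.7, 27.7 and 33.1 CPM and PD wounds 47.6, 30.8, 63, 58.1 and 57.6 CPM at day 2. The lowest wound library was P replicate 2. It was 26.3, 21.9, 13, 55.3 and 42.5 CPM in P wounds at day 4. In PD wounds of that day it was 24.4 CPM at the lowest, 41.5 at the median and 62.3 at the highest. All wound libraries of these days were above all unwounded ones. The change was 23.1-fold in P and 28.3-fold in PD wounds at day 2 (log2 fold change 4.53 ± 0.91 SE and 4.82 ± 0.92 SE, edgeR adjusted p = 0.000182 and 0.000123). At day 4 it was 4.13 in P and 4.49 in PD wounds on the log2 scale (edgeR adjusted p = 0.000446 and 0.000157). At day 12 the P libraries held 2.19 CPM at the lowest, 3.47 at the median and 31 at the highest. The PD libraries held 1.8 CPM at the lowest, 5.96 at the median and 25.4 at the highest. Both groups overlapped unwounded skin (log2 fold change 2.33 and 2.67, edgeR adjusted p = 0.0195 and 0.00918). The P call ended without P replicate 1 (edgeR adjusted p = 0.101) or without unwounded replicate 1 or 3.

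Oasl1, which holds back translation of Irf7, had the next largest changes at days 2 and 4. It was at 1.61, 2.45 and 1.21 CPM in unwounded skin. P wounds held 33, 9.33, 28.9, 13.9 and 29 CPM and PD wounds 28.8, 20.5, 68, 67.1 and 50.9 CPM at day 2. The lowest wound library was above the highest unwounded one in both arms. The change was called in P wounds (log2 fold change 3.67 ± 0.81 SE, edgeR adjusted p = 0.00052) and in PD wounds (log2 fold change 4.72 ± 0.86 SE, edgeR adjusted p = 6.21e-05). Oasl1 also rose at day 4, by 3.43 in P and 3.36 in PD wounds, and at day 12, by 1.95 and 2.62. The P call of day 12 ended without any 1 of P replicates 1 and 2 or of the 3 unwounded libraries (edgeR adjusted p = 0.0503 to 0.125). Oasl2, a relative with synthetase activity, rose by 2.11 in P and 2.76 in PD wounds at day 2, 2.18 and 2.36 at day 4 and 1.78 and 2.15 at day 12. Oas1a rose by 1.99 to 3.20 over the 6 wound groups, and no single library ended any of its calls. Oas2 rose by 1.59 to 2.33 at days 2 and 4, and its day 12 values of 1.15 and 1.30 did not pass (edgeR adjusted p = 0.0969 and 0.0603). Its calls in P wounds at day 2 and in both arms at day 4 ended with unwounded replicate 3 left out (edgeR adjusted p = 0.0724 to 0.104). That of Oasl2 in P wounds at day 12 ended without P replicate 1 (edgeR adjusted p = 0.0872) or unwounded replicate 1 or 3.

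**Figure D2:**
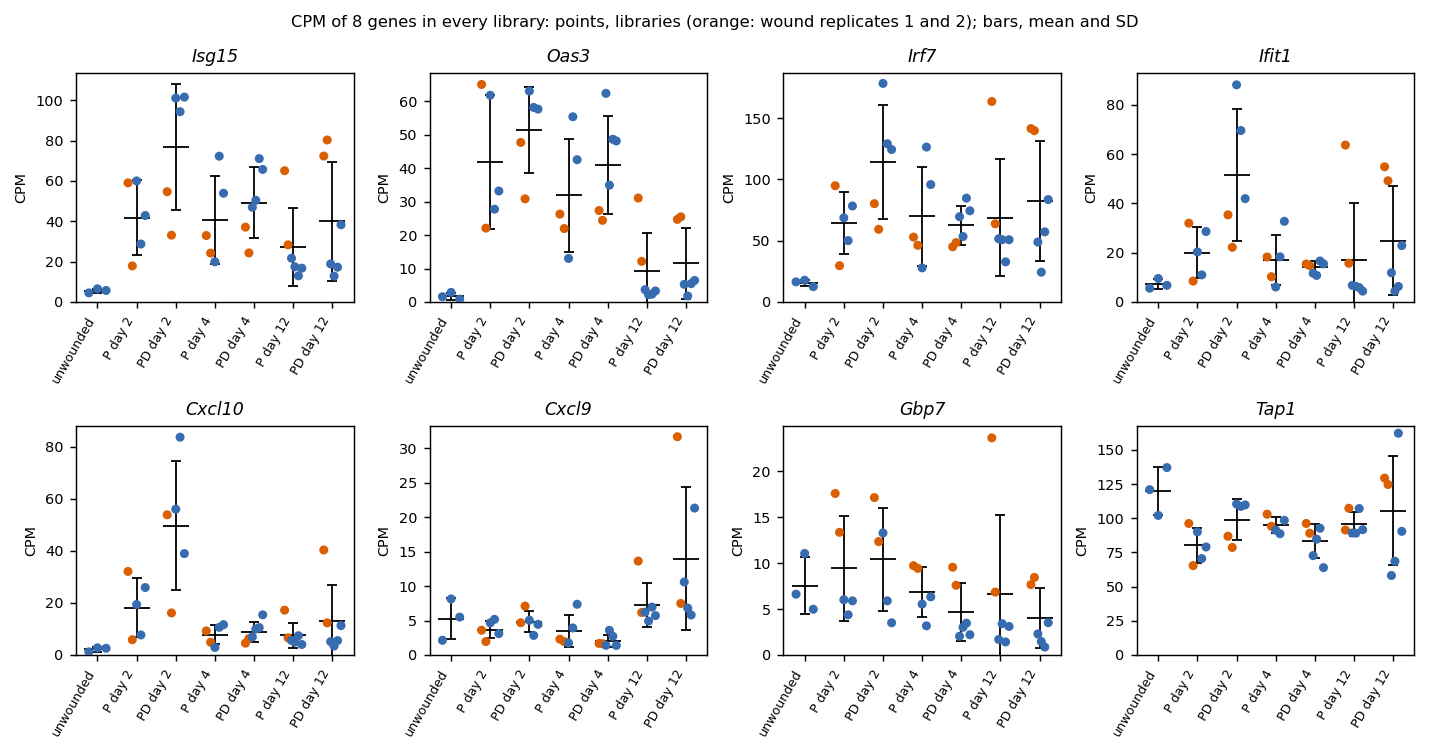
Bars show mean CPM with SD and points show single libraries for 8 members in unwounded skin and in P and PD wounds at days 2, 4 and 12. The mean of Isg15, Oas3 and Irf7 is above unwounded skin in each wound group. Ifit1 and Cxcl10 peak in PD wounds at day 2 with wide spread, Cxcl9 is highest in PD wounds at day 12, and Gbp7 and Tap1 stay near or under the unwounded level.

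The Ifit genes, of which Ifit1 binds RNA that lacks the cap methylation of the host, gave fewer calls. With all libraries no Ifit gene was called in P wounds on any day (0 of 4 at adjusted p under 0.05 by edgeR, 0 at an unadjusted p under 0.05 and 0 by the Wald test of DESeq2). Ifit1 was called in P wounds of day 2 with only the libraries of those 2 groups in the fit. Without wound replicates 1 and 2 it was called at day 2 (edgeR adjusted p = 0.0342) and day 4 (edgeR adjusted p = 0.0396) in P wounds. In PD wounds 3 of 4 rose at day 2 (21% of all genes) and 1 of 4, Ifit3, at day 12 (24.2% of all genes). In P wounds 22.3% to 23.7% of all genes were higher with all libraries. Ifit1 was at 5.61, 9.53 and 6.76 CPM in unwounded skin. At day 2 it was at 32, 8.49, 20.3, 11 and 28.6 CPM in P wounds and 35.4, 22.2, 88.2, 69.6 and 42 CPM in PD wounds. The PD libraries were all above the unwounded ones (log2 fold change 2.81 ± 0.84 SE, edgeR adjusted p = 0.00838), while 1 P library overlapped them (log2 fold change 1.46 ± 0.79 SE, edgeR adjusted p = 0.14). Ifit3 was at 10.7, 9.81 and 8.49 CPM in unwounded skin. Wounds of day 2 held 29.9, 7.82, 18.8, 10.7 and 26.3 CPM in the P arm and 28.2, 19.8, 86.5, 53 and 46.9 CPM in the PD arm. It rose in PD wounds (log2 fold change 2.28 ± 0.73 SE, edgeR adjusted p = 0.0134). Its call ended with unwounded replicate 3 left out (edgeR adjusted p = 0.0504), as did that of Ifit2 (edgeR adjusted p = 0.0611). The difference between the arms was not called for any of the 4 genes. At day 12 Ifit3 rose in PD wounds (log2 fold change 1.83 ± 0.70 SE, edgeR adjusted p = 0.0337). It was at 81.5 and 50.3 CPM in replicates 1 and 2 and 7.09 to 35.9 CPM in the others. The call was lost without either of replicates 1 and 2 or any unwounded library.

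Isg15, the ubiquitin-like protein that interferon target cells attach to other proteins, rose in wounds of each day. It was at 4.52, 6.54 and 5.71 CPM in unwounded skin. At day 2 it was at 59.1, 17.9, 60.01, 28.7 and 42.9 CPM in P wounds and 54.7, 33.1, 101, 94.3 and 102 CPM in PD wounds. All 10 wound libraries were above unwounded skin, and the highest 3 were PD libraries. At day 4 it was at 32.9, 24.2, 19.9, 72.3 and 53.9 CPM in P wounds. In PD wounds of that day it was at 24.3 CPM at the lowest, 48.7 at the median and 71.1 at the highest. Here too every library was above unwounded skin. The P wounds of day 12 held 13 CPM at the lowest, 19.6 at the median and 65.1 at the highest. The PD wounds held 12.8 CPM at the lowest, 28.6 at the median and 80.3 at the highest. The day 12 libraries did not overlap unwounded skin either. The log2 fold changes in P wounds were 2.89 ± 0.64 SE at day 2, 2.86 ± 0.64 at day 4 and 2.27 ± 0.61 at day 12 (edgeR adjusted p = 0.000507, 0.00062 and 0.00333). In PD wounds they were 3.78 ± 0.67 SE, 3.13 ± 0.64 and 2.84 ± 0.63 (edgeR adjusted p = 4.5e-05, 0.000189 and 0.000599). Usp18, which removes Isg15 from proteins and dampens the type I receptor, was not called with all libraries in the fit. Usp18 was at 19.1, 16.2 and 21.8 CPM in unwounded skin. P wounds held 22.3, 7.61, 17.2, 10.8 and 19.4 CPM and PD wounds 19.1, 13.6, 41.6, 31.9 and 34.2 CPM at day 2. These ranges overlapped. Its log2 fold changes ran from -0.58 to 0.56 over the 6 wound groups, with edgeR adjusted p of 0.354 at day 4 and 0.429 at day 2 in PD wounds.

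The 12 members that form the Isg15 system and other antiviral effectors gave 4, 3 and 2 calls in P wounds at days 2, 4 and 12, and 8, 3 and 2 in PD wounds, all higher. These are 33.3%, 25% and 16.7% of the 12 in P and 66.7%, 25% and 16.7% in PD wounds, so above the share of all genes at day 2 and near or under it at days 4 and 12. Rsad2, or viperin, makes a nucleotide that ends viral RNA chains, and its gene neighbour Cmpk2 supplies the substrate. Rsad2 was at 6.17, 7.06 and 4.67 CPM in unwounded skin. At day 2 it was at 67.1, 12.3, 47.1, 15.1 and 43.4 CPM in P wounds and 81.3, 28.6, 153, 124 and 73.3 CPM in PD wounds. All 10 wound libraries were above unwounded skin. The change was called in P wounds (log2 fold change 2.63 ± 0.89 SE, edgeR adjusted p = 0.0176) and in PD wounds (log2 fold change 3.94 ± 0.95 SE, edgeR adjusted p = 0.00142). Its P call ended with unwounded replicate 1 or 3 left out (edgeR adjusted p = 0.0558 and 0.0687). Cmpk2 rose in PD wounds at day 2 (log2 fold change 1.67 ± 0.65 SE, edgeR adjusted p = 0.0389), a call lost without any 1 of 6 libraries. In P wounds its log2 fold change was 0.42 (edgeR adjusted p = 0.613). Bst2, or tetherin, which holds budding virus at the cell surface, rose in PD wounds at day 2 (log2 fold change 1.61 ± 0.46 SE, edgeR adjusted p = 0.00552). It also rose in P wounds at day 4 (1.32) and in both arms at day 12 (1.42 in P and 1.81 in PD wounds). Its day 4 call ended with unwounded replicate 3 or P replicate 5 left out (edgeR adjusted p = 0.0716 and 0.0509). Its P call at day 12 ended without wound replicates 1 and 2 (log2 fold change 0.78, edgeR adjusted p = 0.0859). Trim30a, a negative regulator of inflammatory signalling, rose at days 2 and 4 in both arms by 2.08 to 2.74. Ifi27l2a, a mouse relative of human IFI27, was at 72.1, 98.6 and 36.3 CPM in unwounded skin and 194, 356, 276, 102 and 119 CPM in PD wounds at day 2. It rose there (log2 fold change 1.60 ± 0.47 SE, edgeR adjusted p = 0.00742), but not with unwounded replicate 3 left out (edgeR adjusted p = 0.0531). Parp14, an ADP-ribosyltransferase, rose at day 2 in P wounds (1.15) and PD wounds (1.43). Its P call ended with unwounded replicate 1 or 3 left out (edgeR adjusted p = 0.0766 and 0.0832). Ifi35 rose in PD wounds at day 2 (0.71). Usp18, Mx2, Ifi44 and Xaf1 were called in no wound group by edgeR with all libraries. The Wald test of DESeq2 called Mx2 in PD wounds at day 2 and Ifi44 and Xaf1 in PD wounds at day 12. Without wound replicates 1 and 2, Mx2 and Xaf1 were higher in PD wounds at day 2 and Usp18 was lower in P wounds at day 12. Mx2, an antiviral dynamin-like GTPase, had log2 fold changes between -0.06 and 1.46.

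The 2 chemokines of the list both attract Cxcr3-bearing T cells and natural killer cells. Their highest means were in different groups, PD wounds at day 2 for Cxcl10 and PD wounds at day 12 for Cxcl9. Cxcl10 was at 1.2, 2.73 and 2.57 CPM in unwounded skin. Wounds of day 2 held 32.1, 5.85, 19.4, 7.67 and 25.9 CPM in the P arm and 53.9, 16.2, 56, 83.7 and 39 CPM in the PD arm. All wound libraries were above unwounded skin. The change was called in P wounds (log2 fold change 3.06 ± 0.75 SE, edgeR adjusted p = 0.00147) and in PD wounds (log2 fold change 4.52 ± 0.81 SE, edgeR adjusted p = 5.28e-05). It was still higher at day 4, by 1.85 in P and 2.03 in PD wounds, and at day 12, by 1.81 and 2.58. The P calls of days 4 and 12 each ended without any 1 unwounded library (edgeR adjusted p = 0.0621 to 0.13). Cxcl9, a target of interferon gamma, was at 2.13, 8.14 and 5.5 CPM in unwounded skin. The P wounds of day 2 held 3.59, 1.94, 4.67, 5.17 and 3.1 CPM and the PD wounds 4.68, 7.1, 5.04, 2.84 and 4.44 CPM. These groups overlapped. At day 4 PD wounds held 1.38 CPM at the lowest, 1.65 at the median and 3.58 at the highest. They were called lower than unwounded skin (log2 fold change -1.34 ± 0.49 SE, edgeR adjusted p = 0.0241). This call ended without unwounded replicate 2 (edgeR adjusted p = 0.252) or 3 (edgeR adjusted p = 0.0721) or PD replicate 3 or 6. At day 12 PD wounds held 5.81 CPM at the lowest, 9.04 at the median and 31.7 at the highest. They were called higher (log2 fold change 1.40 ± 0.53 SE, edgeR adjusted p = 0.0304), and that call ended without PD replicate 1 (edgeR adjusted p = 0.101) or 6 or unwounded replicate 1 or 3. Cxcl9 in P wounds at day 12 was at 4.92 CPM at the lowest, 6.19 at the median and 13.6 at the highest. This was not called (log2 fold change 0.46 ± 0.51 SE, edgeR adjusted p = 0.474). The 12 T and natural killer cell markers summed to 21.5 to 45.6 CPM in unwounded skin, 14.4 to 37.4 CPM in P and 8.44 to 34.7 CPM in PD wounds at day 12. Their part in the Cxcl9 values was not tested.

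The 8 interferon induced GTPases attack vacuoles that hold microbes and are mostly targets of interferon gamma. They gave 1 call against unwounded skin over the 6 wound groups by edgeR with all libraries. Of all genes 21% to 25.4% were called higher in these groups and 18.4% to 21.8% lower. The 1 call was for Ifi47, an immunity-related GTPase, in PD wounds at day 2. It was at 5.42, 7.78 and 5.71 CPM in unwounded skin and 21.2, 19.9, 33.1, 17.5 and 18.3 CPM in these wounds, without overlap (log2 fold change 1.80 ± 0.64 SE, edgeR adjusted p = 0.026). The call was lost without unwounded replicate 1 or 3 or PD replicate 3. Over all 8 genes the median log2 fold change was 0.28 in P and 0.64 in PD wounds at day 2, 0.01 and -0.11 at day 4, and -0.02 and 0.30 at day 12. Irgm1, which governs the other immunity-related GTPases, was at 23.3, 31.8 and 25.8 CPM in unwounded skin. The P wounds of day 2 held 50.2, 28.5, 43.8, 31.7 and 49 CPM and the PD wounds 44.1, 45.2, 68.9, 54 and 52.6 CPM. It did not pass (edgeR adjusted p = 0.239 in P and 0.0523 in PD wounds). Gbp5, which promotes inflammasome assembly, was at 6.09, 9.12 and 7.6 CPM in unwounded skin. In PD wounds at day 4 it was at 2.02 CPM at the lowest, 3.23 at the median and 5.02 at the highest. These were all under the unwounded range, without a call (log2 fold change -1.08 ± 0.51 SE, edgeR adjusted p = 0.078). The Wald test of DESeq2 also called Irgm1 in PD wounds at day 2, and the replicate block added Gbp2 and Irgm1 there. Without wound replicates 1 and 2 the calls went both ways. Gbp2, Igtp, Irgm1 and Ifi47 were then higher in PD wounds at day 2, Irgm1 in PD wounds at day 4 and Ifi47 in P wounds at day 4. Gbp5 and Gbp7 were lower in PD wounds at days 4 and 12, and Gbp2, Gbp5, Gbp7 and Irgm2 in P wounds at day 12. Cores of the response element were in the promoters of 6 of the 8 GTPases and of 3 of the 5 synthetases.

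Of the 3 immunoproteasome and peptide transport genes, Psmb8 was called higher in 1 wound group and Tap1 lower in 2. In the wound groups concerned, 21% of all genes were higher for the former and 19% and 21.8% lower for the latter. Psmb8, an inducible catalytic subunit, was at 42, 36.9 and 46.1 CPM in unwounded skin and 69.5, 60.7, 67.3, 61.3 and 76.6 CPM in PD wounds at day 2 (log2 fold change 0.69 ± 0.27 SE, edgeR adjusted p = 0.0407). This call was lost without unwounded replicate 1 or 2 or PD replicate 1, 3 or 5. Psmb9, the other inducible subunit here, had log2 fold changes from -0.17 to 0.16 and no call. Tap1, which carries peptides into the endoplasmic reticulum for MHC class I, was lower. It was at 121, 102 and 137 CPM in unwounded skin and 96.2, 65.3, 90.04, 70.5 and 79 CPM in P wounds at day 2. In PD wounds at day 4 it was at 63.9 CPM at the lowest, 86.9 at the median and 96.2 at the highest. Neither wound group overlapped unwounded skin. Tap1 fell in P wounds at day 2 (log2 fold change -0.58 ± 0.21 SE, edgeR adjusted p = 0.0236) and in PD wounds at day 4 (log2 fold change -0.53 ± 0.20 SE, edgeR adjusted p = 0.0291). Leaving out unwounded replicate 3, the highest, ended both calls (edgeR adjusted p = 0.166 and 0.21), as did leaving out unwounded replicate 1 (0.0854 and 0.109). Of 6 other proteasome subunits (Psmb5, Psmb6, Psmb7, Psma3, Psma5 and Psma7), 4 were higher in P and 5 in PD wounds at day 2. These shares of 66.7% and 83.3% stood against 22.3% and 21% of all genes. Psmb5, which Psmb8 replaces, rose by 0.76 and 0.88 (log2 fold change, edgeR adjusted p = 0.00784 and 0.00285). Of 9 partners in antigen presentation, 1 was higher and 2 were lower in P and 3 and 1 in PD wounds at day 2. In P wounds these are 11.1% and 22.2%, against 22.3% and 19% of all genes. In PD wounds they are 33.3% and 11.1%, against 21% and 18.4%. Among these partners Psmb10, a further inducible subunit, was higher in each wound group, with log2 fold changes of 0.64 to 1.38. Nlrc5, the activator of MHC class I genes, was lower in each wound group, with log2 fold changes of -1.63 to -1.06.

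Genes of the same pathway outside the list were also called mostly higher at days 2 and 4. Of 42 other interferon induced genes, 22 were higher and 4 lower in P and 25 and 0 in PD wounds at day 2. At day 4 it was 19 and 2 in P and 19 and 4 in PD wounds, and at day 12 it was 11 and 0 in P and 10 and 0 in PD wounds. The shares higher were 52.4% in P and 59.5% in PD wounds at day 2 and 45.2% in both at day 4, above those of all genes. At day 12 they were 26.2% and 23.8%, near the 23.7% and 24.2% of all genes. The largest changes were those of Slfn4, a Schlafen gene of myeloid cells (8.72 in P and 8.80 in PD wounds at day 2, on the log2 scale). Next were Ifitm1, a membrane protein that blocks viral fusion (5.69 and 5.07) and Slfn1 (5.39 and 5.49), all called by edgeR with adjusted p of 8.88e-05 or less. Gbp10 was lower in P wounds at day 2 (log2 fold change -3.14 ± 1.07 SE, edgeR adjusted p = 0.0187). Tgtp1, another induced GTPase, was lower in both arms at day 4 (-1.50 in P and -2.20 in PD wounds). Of 15 sensors and adaptors that lead to interferon, 10 were higher and 2 lower in P and 10 and 1 in PD wounds at day 2. In P wounds these are 66.7% and 13.3%, against 22.3% and 19% of all genes. In PD wounds they are 66.7% and 6.67%, against 21% and 18.4%. Tlr7 and Tlr9, endosomal receptors for RNA and DNA, rose by 3.40 and 3.35 in P and 2.94 and 3.18 in PD wounds at day 2. Mavs, the mitochondrial adaptor, was lower in each wound group. The sums of monocyte and neutrophil markers given above were higher over the same days, and their part was not tested.

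Between the arms no member was called on any day. At day 2 all 41 genes had a higher fitted level in PD than in P wounds, with a median log2 difference of 0.54 against -0.01 over all genes, of which 47.8% were positive. By edgeR 0 of the 41 passed in either direction (0% of all genes). Of them 6 were higher at an unadjusted p under 0.05 (1.44% of all genes) and 0 lower (2.4% of all genes). By the Wald test of DESeq2 0 passed. The 6 were Cxcl10 (1.45 ± 0.56 SE), Ifit3b (1.31 ± 0.56), Cmpk2 (1.25 ± 0.53), Ifit3 (1.33 ± 0.58), Ifi35 (0.36 ± 0.17) and Ifit1 (1.36 ± 0.65), all with an edgeR adjusted p of 1. Their libraries overlapped between the arms, as did those of the other 35 members. Cxcl10, for example, ran from 5.85 to 32.1 CPM in P and from 16.2 to 83.7 CPM in PD wounds. The PD libraries of day 2 also differed by replicate number. The log2 ratio of the mean of replicates 1 and 2 to that of the others had a median of -0.39 over the members (range -1.37 to 0.96). Isg15 was at 33.1 and 54.7 CPM in replicates 1 and 2 and at 94.3 to 102 CPM in the others. Members move together within a library, so the 41 shared signs are not separate observations. Marker sums lay lower in PD than in P wounds on that day, with overlap for monocytes and macrophages and without it for neutrophils. Those of monocytes and macrophages were 2639 to 4217 CPM in PD against 3837 to 6318 CPM in P wounds. Those of neutrophils were 2358 to 4863 CPM in PD against 5075 to 9602 CPM in P wounds. Their part in the difference was not tested.

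**Figure D3:**
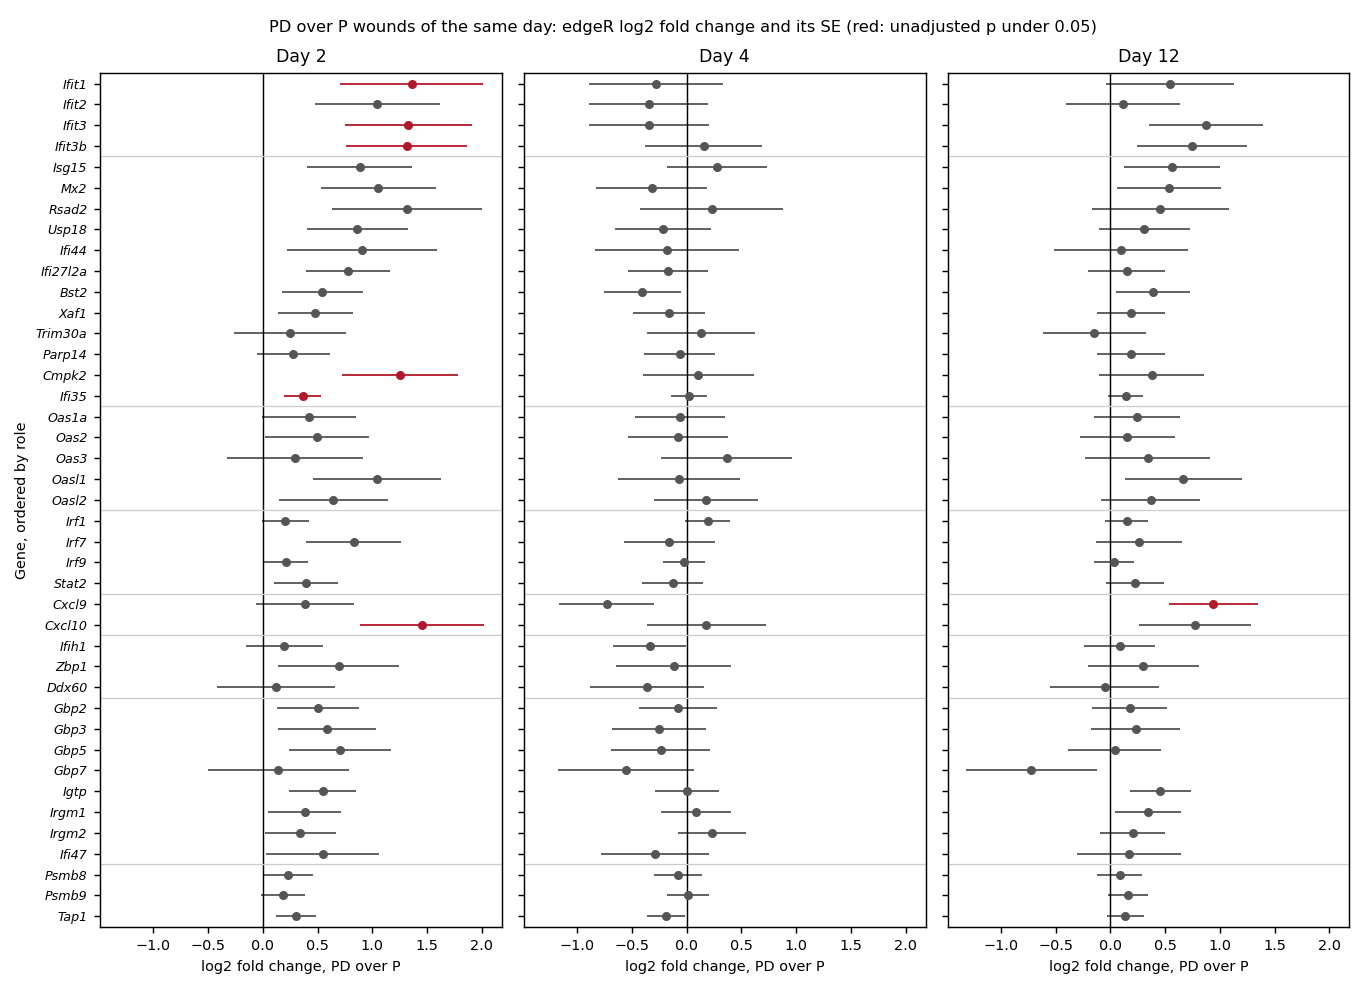
Points show the log2 fold change of PD over P wounds with SE for each of the 41 genes at days 2, 4 and 12, in role order, and red marks an unadjusted p under 0.05. At day 2 all 41 points lie right of 0, at day 4 27 lie left of it, and at day 12 38 lie right of it. No gene passes at an adjusted p under 0.05 on any day.

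At day 4 the signs were mixed, and 14 members were higher and 27 lower in PD than in P wounds, with a median of -0.08. Again 0 members passed by edgeR (0% of all genes). There were 0 at an unadjusted p under 0.05 in either direction (4.96% and 6.51% of all genes) and 0 by the Wald test of DESeq2, which called 12 genes higher and 170 lower in all. At day 12, 38 members were higher and 3 lower, with a median of 0.23. By edgeR 0 members passed (0% of all genes), 1 was higher at an unadjusted p under 0.05 (3.42% of all genes) and 0 lower (1.52% of all genes). That gene was Cxcl9 (log2 difference 0.94 ± 0.41 SE, edgeR adjusted p = 0.884). By the Wald test of DESeq2 0 members passed. The change of the difference from day 2 to day 4 was itself tested and called for 0 members (0% of all genes). At an unadjusted p under 0.05 it was higher for 0 (3.87% of all genes) and lower for 1, Ifit3 (3.25% of all genes). Its median over the members was -0.64. From day 4 to day 12 it was called for 0 (0% of all genes). At an unadjusted p under 0.05 this change was higher for 1, Cxcl9 (1.77% of all genes), and lower for 0 (1.24% of all genes). The Wald test of DESeq2 called 0 members in either change.

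From day 2 to day 4 no member was called in P wounds, and all fitted changes were negative in PD wounds. In P wounds 0 members changed by edgeR, against 5.76% of all genes higher and 2.7% lower. There 0 were higher and 1 lower at an unadjusted p under 0.05 (12.8% and 9.72% of all genes), and 0 passed the Wald test of DESeq2. In PD wounds all 41 fitted changes were negative, with a median of -0.80 against 0.02 over all genes. By edgeR 2 passed (1.59% of all genes lower) and 0 were higher (2.67% of all genes, and 0 members at an unadjusted p under 0.05 or by the Wald test of DESeq2). Cxcl10 was at 53.9, 16.2, 56, 83.7 and 39 CPM at day 2. At day 4 it was at 4.53 CPM at the lowest, 8.43 at the median and 15.4 at the highest. It fell without overlap (log2 fold change -2.48 ± 0.55 SE, edgeR adjusted p = 0.00836). Gbp5 was at 12.9, 9.41, 14.6, 9.01 and 8.24 CPM at day 2, against a highest value of 5.02 CPM at day 4. It also fell without overlap (log2 fold change -1.59 ± 0.45 SE, edgeR adjusted p = 0.0359), but leaving out any 1 of 7 libraries ended that call. The count in PD wounds was 8 by the Wald test of DESeq2 and 13 without wound replicates 1 and 2 (1.33% of all genes lower and 1.63% higher in that fit).

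From day 4 to day 12, P wounds had 0 members higher (11.2% of all genes, with 1 member at an unadjusted p under 0.05 and 1 by the Wald test of DESeq2) and 3 lower (12.6% of all genes). These were Oas3 (log2 fold change -1.80 ± 0.60 SE, edgeR adjusted p = 0.029), Irf1 (log2 fold change -0.59 ± 0.21 SE, edgeR adjusted p = 0.0351) and Ifi27l2a (log2 fold change -1.14 ± 0.37 SE, edgeR adjusted p = 0.0224). In PD wounds 3 were higher (15.7% of all genes) and 2 lower (15.6% of all genes). Cxcl9 rose from the values given above, and all day 12 libraries, at 5.81 CPM or more, were above all day 4 libraries, at 3.58 CPM or less (log2 fold change 2.74 ± 0.43 SE, edgeR adjusted p = 1.16e-05). Bst2 (log2 fold change 0.89 ± 0.34 SE, edgeR adjusted p = 0.044) and Gbp3 (log2 fold change 1.05 ± 0.41 SE, edgeR adjusted p = 0.0496) were the others higher. Lower were Oas3 (log2 fold change -1.82 ± 0.59 SE, edgeR adjusted p = 0.0165) and Irf1 (log2 fold change -0.63 ± 0.20 SE, edgeR adjusted p = 0.0137). Every one of the P calls, and those of Bst2, Gbp3 and Irf1 in PD wounds, was lost without 1 or more single libraries. The 3 calls in P wounds became 0 without P day 4 replicate 4 and 12 without P day 12 replicate 1.

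At day 12 the counts changed without the libraries that stand apart. Replicates 1 and 2 were both above each of replicates 3 to 6 for 37 of the 41 members in P wounds (23.9% of all genes) and for 37 in PD wounds (15% of all genes). The median ratio of their means was 1.62 in P and 1.67 in PD wounds on the log2 scale. Without wound replicates 1 and 2, P wounds at day 12 had 4 members higher than unwounded skin (25% of all genes), Isg15, Oas1a, Irf7 and Cxcl10. There 8 were lower (21.9% of all genes), Rsad2, Usp18, Ifih1, Gbp2, Gbp5, Gbp7, Irgm2 and Cmpk2. Among the latter, Usp18 had a log2 fold change of -1.02 (edgeR adjusted p = 0.0255), against -0.36 with all libraries. Rsad2 had a log2 fold change of -1.16 (edgeR adjusted p = 0.0413), against 0.69. In PD wounds 9 were higher (26.5% of all genes), Isg15, Oas1a, Oas3, Oasl1, Oasl2, Irf7, Cxcl10, Bst2 and Zbp1. Another 4 were lower (21.6% of all genes), Ifih1, Gbp5, Gbp7 and Cmpk2. From day 4 to day 12 the count in P wounds was then 0 higher (9.9% of all genes) and 22 lower (16.2% of all genes). In PD wounds it was 1 higher (16.4% of all genes), Cxcl9, and 14 lower (16% of all genes).

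Marker sums parted by the same numbers at day 12. Over both arms the monocyte and macrophage markers summed to 1424 to 2455 CPM in replicates 1 and 2 and to 236 to 893 CPM in replicates 3 to 6. The fibroblast markers summed to 41605 to 86044 and 10705 to 25289 CPM, and the endothelial markers to 312 to 627 and 104 to 221 CPM. The ranges of T and natural killer cell markers (23.6 to 34.7 and 8.44 to 37.4 CPM) and of plasmacytoid dendritic cell markers (139 to 263 and 115 to 400.5 CPM) overlapped. The part of these cells in the day 12 values was not tested.

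**Figure D4:**
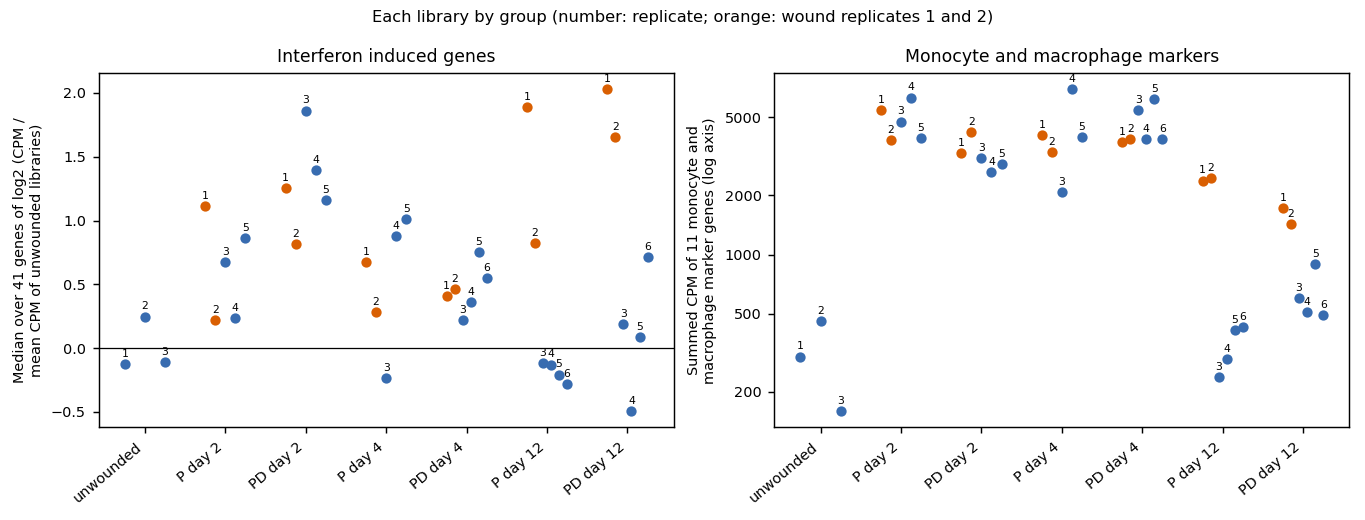
The left panel shows, for each of the 36 libraries, the median over the 41 genes of log2 CPM over the mean of unwounded skin. The right panel shows the summed CPM of the 11 monocyte and macrophage markers on a log axis. Replicate numbers stand beside the points in both. At day 12 replicates 1 and 2 of both arms are the highest points of their group in both panels. At day 2 the median runs from 0.22 to 1.12 in P and from 0.82 to 1.86 in PD wounds. The marker sums of that day run from 3837 to 6318 CPM in P and from 2639 to 4217 CPM in PD wounds. A relation between the panels was not tested.

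Within groups the members moved together. Over the 36 libraries, with each group's mean taken off log2 CPM, the median Pearson correlation over the 820 pairs of members was 0.80. It was 0.64 over the 24 libraries without wound replicates 1 and 2. These points share library, depth and cell content, so the values are descriptions. Zbp1 and Parp14 followed the mean of the other members most closely (r = 0.97 each), and Tap1 (0.39), Cxcl9 (0.50), Psmb9 (0.52) and Psmb8 (0.58) least.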

How the data were processed

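The values used are raw read counts per gene, which the authors deposited for all 36 libraries. Per the submitters' processing notes, the tools were Trimmomatic, HISAT2 2.1.0, SAMtools 1.9 and HTSeq, and the genome build was GRCm39. TRIzol extraction and a TruSeq Stranded mRNA kit are named in the labels' protocols. The strand setting and annotation release are not given in the sources used here. Each table held 55414 genes, 1416 of them without a symbol. Replicates were compared in pairs, and the lowest chi-square over its degrees of freedom was 12.3, so none was 1 library deposited a second time.

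Libraries were grouped as labelled into 7 groups. The tool was edgeR 4.0.16 in R 4.3.3, using the quasi-likelihood test with robust dispersions and TMM scaling. A single fit held all 36 libraries, with a mean for each group. Genes passed filterByExpr at a count of at least 10 and a total of at least 15. Calls were made in 15 comparisons where the Benjamini-Hochberg adjusted p over the 20657 genes tested was under 0.05. Steps across genes were tested on simulated data. Alternatives were size factors or the Wald test of DESeq2 1.42.0, no filter, only the libraries of the groups compared, the replicate number as a block, and leaving out each library in turn. After the data were seen, wound replicates 1 and 2 were left out together or given a term of their own.

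The members, their role groups, the pathway lists and the marker lists were chosen with earlier results of these data known. The symbols Rigi and Tcrg-C1 of these lists matched no gene and Ddx58 stands for the former. Values in every library were given, per comparison, for up to 3 called members with the largest change in each direction and for the member of each role group with the highest mean CPM, and other members were named by role. Ligands, receptors and Socs1 outside the list could be named always, and others where called, up to 4 per list and comparison by size of change. Promoters, motifs and gene overlaps were read with pysam 0.24.0 from GRCm39 and GENCODE vM39, whose release may differ from that used for counting, and transcripts were aligned with Biopython 1.88.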

Additional observations from a re-analysis of the deposited data

Results flagged for a closer look

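In 31 of 246 sets of 5 or 6 libraries (41 genes in 6 wound groups), 1 library stood far from the others of its group, by Dixon's test at the 95% level, where chance flags about 1 in 20 sets. The genes move together within a library, so these are not separate events. In 23 of the 31 the library was P day 12 replicate 1, as the highest of its group. Its values were Ifit1 at 63.7 CPM, Ifit2 at 48.5, Ifit3 at 57.8, Ifit3b at 17.9, Isg15 at 65.1, Mx2 at 13.8, Oas3 at 31, Oasl2 at 172, Irf7 at 164, Stat2 at 127, Rsad2 at 34.7 and Cxcl9 at 13.6 CPM. They were Cxcl10 at 17.2, Usp18 at 37, Ifi44 at 26.4, Ifih1 at 35.2, Xaf1 at 47.5, Gbp3 at 65.3, Gbp7 at 23.6, Zbp1 at 69.3, Ddx60 at 18.8, Parp14 at 84.2 and Cmpk2 at 20 CPM for the remaining genes. The next library of that group, replicate 2, was at 15.7 CPM for Ifit1 and 28.3 CPM for Isg15.

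PD day 12 replicate 1 was the highest of its group for Cxcl10 (40.3 CPM, next 12.3 CPM). PD day 4 replicate 5 was the highest of its group for Usp18 (18.9 CPM, next 12.5 CPM). PD day 2 replicate 3 was the highest of its group for Bst2 (111 CPM, next 61.9 CPM), Xaf1 (31 CPM, next 22.7 CPM), Ddx60 (14.8 CPM, next 8.19 CPM) and Ifi47 (33.1 CPM, next 21.2 CPM). P day 2 replicate 2 was the lowest of its group for Ifi35 (24.5 CPM, next 37.4 CPM). P day 4 replicate 3 was the lowest of its group for Psmb9 (19.9 CPM, next 29.6 CPM). These libraries stayed in the comparisons.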

How the results depend on the processing

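Counts of members called are given as higher and lower together. The 106 single-gene results followed are the called ones and those at an unadjusted p under 0.05 between the arms, and 0 of these 106 changed direction under any alternative. A member outside them did: Rsad2 in P wounds at day 12 was called lower without wound replicates 1 and 2. With DESeq2 size factors in edgeR every count stayed within 1.5 times its value, and all 106 kept their side of the threshold, as they did in the Wald test of DESeq2. With only the libraries of the groups compared, the count was 23 in place of 15 for P day 2 and 5 in place of 9 for P day 12 against unwounded skin, 24 in place of 15 for PD day 4 against unwounded skin, 1 in place of 3 for P day 12 against day 4, 14 in place of 2 for PD day 4 against day 2, and 2 in place of 5 for PD day 12 against day 4. Without the filter on low counts, which adds genes to the adjustment, it was 0 for P day 12 against day 4, 1 for PD day 4 against day 2 and 3 for PD day 12 against day 4, and 18 of the 106 results lost their call. The Wald test gave 5 for P day 12 against day 4 and 8 for PD day 4 against day 2. With a term that parts wound replicates 1 and 2 these counts were 6 and 8, and with these replicates left out they were 22 and 13, and 15 for PD day 12 against day 4. The cause was not tested.

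Same-numbered P and PD libraries of a day were not treated as paired, since the labels do not say what the number marks and each day held a pair with a correlation under 0.1. In all, 12 of 16 pairs had a correlation of deviations from the group means over 0.1 (range -0.25 to 0.54), and in 4 of 16 the library correlated best with its own number. With the replicate block the count was 5 for P day 12 against day 4 and 4 for PD day 4 against day 2, the other counts stayed within 1.5 times, and 4 of the 106 results lost their call.

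Leaving out 1 library at a time gave 10 to 16 members called for P day 2, 8 to 14 for P day 4, 4 to 11 for P day 12, 17 to 24 for PD day 2, 9 to 15 for PD day 4 and 9 to 16 for PD day 12 against unwounded skin. The lowest count came without unwounded replicate 3 at P day 2, PD day 2 and P day 4 and without unwounded replicate 1 in the other 3. It gave 0 to 12 for P day 12 against day 4, 1 to 2 for PD day 4 against day 2 and 2 to 10 for PD day 12 against day 4, where the highest came without PD day 12 replicate 4, and 0 for PD against P on each day, P day 4 against day 2 and both changes of the arm difference. Of the 106 results, 39 lost their call without at least 1 library. The 3 unwounded libraries limit the precision of every comparison with unwounded skin, and counts of the interferon ligands were too low to compare.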
